A study of Mus musculus with 12 samples.

Results

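The genes described here are Nfe2l2, which encodes the transcription factor NRF2, and 9 of its known antioxidant and NADPH-producing targets: Srxn1, Hmox1, Nqo1, Gclc, Gclm, Txnrd1, Ugdh, Pgd and G6pdx. They were found by gene symbol in the platform annotation of the deposited arrays, with the brightest probe set taken for a gene. Of the 10 genes listed, 8 had a probe set of their own, 1 each, among 30142 genes with such a probe set, and all 8 were among the 18725 genes bright enough to be tested. The probe set of Gclm is annotated with Gm6061 as well, a pseudogene of Ppia in RefSeq, so it was not counted as Gclm. No probe set was listed for G6pdx in the annotation used, and that gene was not analysed here.

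The study measured liver RNA of C57BL/6 males aged 12 weeks on whole-transcript arrays, to ask whether liver expression differs in male descendants of obese females. Control males (4 arrays) had lean control parents, F2 males (4 arrays) had an obese Avy/a grandmother, and F3 males (4 arrays) an obese Avy/a great-grandmother. Avy is the viable yellow allele of agouti, which causes obesity and a yellow coat, and the labels give no genotype for the descendants themselves. The labels do not say that the arrays of a group came from separate animals, so the p-values below reflect only how much these samples vary, which may be technical in part. Precision is limited by the number of arrays.

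NRF2 is held in the cytoplasm by KEAP1, which passes it to a ubiquitin ligase for destruction. Oxidants and electrophiles modify KEAP1, NRF2 then accumulates in the nucleus, pairs with a small MAF protein and binds antioxidant response elements in its target genes. In liver its targets make glutathione, reduce thioredoxin and peroxiredoxin, break down haem, reduce quinones, and supply NADPH and glucuronic acid for detoxification.

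The promoter windows of Srxn1, Ugdh, Txnrd1 and Nfe2l2 are shown because the first 3 of these genes gave the closest co-variation over the arrays and the last encodes the factor itself. They come from RefSeq on GRCm38.p6, each running from 250 bases before the annotated start of transcription to 50 bases after it, 5′ to 3′ on the strand of the gene. Capitals mark each match to the core of the antioxidant response element, searched on both strands as TGACNNNGC or TGAGNNNGC. For Txnrd1 only the window that held a match is shown.
Srxn1 (chr2:152105274-152105573, plus strand): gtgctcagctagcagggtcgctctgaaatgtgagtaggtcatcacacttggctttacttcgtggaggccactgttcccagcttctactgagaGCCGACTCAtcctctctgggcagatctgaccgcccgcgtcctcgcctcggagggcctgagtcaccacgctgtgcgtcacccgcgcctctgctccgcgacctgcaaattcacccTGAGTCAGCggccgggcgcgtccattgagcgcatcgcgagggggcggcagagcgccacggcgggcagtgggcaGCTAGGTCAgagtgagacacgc
Ugdh (chr5:65435793-65436092, minus strand): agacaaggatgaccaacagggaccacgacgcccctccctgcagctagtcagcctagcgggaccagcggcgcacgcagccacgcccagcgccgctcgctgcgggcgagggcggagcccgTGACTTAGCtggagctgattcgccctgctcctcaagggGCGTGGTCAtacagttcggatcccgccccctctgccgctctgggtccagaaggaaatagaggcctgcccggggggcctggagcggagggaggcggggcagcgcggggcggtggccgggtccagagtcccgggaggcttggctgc
Txnrd1 (chr10:82858956-82859255, plus strand): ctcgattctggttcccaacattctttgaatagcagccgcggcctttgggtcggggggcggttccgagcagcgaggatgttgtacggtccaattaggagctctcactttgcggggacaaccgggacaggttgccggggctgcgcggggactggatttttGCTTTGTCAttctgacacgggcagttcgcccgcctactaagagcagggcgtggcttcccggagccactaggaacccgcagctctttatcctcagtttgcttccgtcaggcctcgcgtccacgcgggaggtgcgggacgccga
Nfe2l2 (chr2:75704614-75704913, minus strand): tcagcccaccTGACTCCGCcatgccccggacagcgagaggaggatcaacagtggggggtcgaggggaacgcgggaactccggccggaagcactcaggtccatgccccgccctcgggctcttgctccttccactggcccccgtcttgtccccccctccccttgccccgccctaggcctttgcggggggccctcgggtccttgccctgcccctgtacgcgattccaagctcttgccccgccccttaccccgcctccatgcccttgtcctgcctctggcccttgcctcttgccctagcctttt
The Srxn1 window held 3 matches, and the middle one, TGAGTCAGC, also holds the AP-1 site TGAGTCA. Of all 32851 windows of this length, 0.63% held 3 or more matches. The Ugdh window held 2, where 4.68% of all windows held 2 or more, and the Nfe2l2 window and the Txnrd1 window shown held 1 each, where 27.8% of all windows held at least 1. The other 2 windows of Txnrd1 held none. RefSeq windows were present for 8 of the 10 genes, all but Hmox1 and Gclc, and 7 of these 8 had a match in at least 1 window, against 30.8% of all genes with a window. Nqo1 had none in its window. These are letter matches in a short window, chosen for genes already known as NRF2 targets, and no binding was measured in this study.

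All values below are log2 expression values, so a difference of 1 is a doubling, and levels of different probe sets are not compared. The arrays were liver-like throughout: the 6 tested hepatocyte markers averaged between 12.09 and 12.25 on every array. Before the groups are compared, a pair of features that cross them has to be given. Control replicate 2 stood apart for some metabolic genes, with the mean level of cholesterol synthesis genes 1.47 above its average over the arrays, where no other array exceeded 0.47. Separately, the level of 337 small nucleolar RNAs split the arrays at its widest gap (0.29) into a higher set of 7 arrays (control replicates 2 and 4, F2 replicates 1 and 4, F3 replicates 1, 2 and 3) and a lower set of 5 (control replicates 1 and 3, F2 replicates 2 and 3, F3 replicate 4). No label divides the arrays this way.

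None of the 8 measured genes passed the test between any pair of groups, and each averaged lower in F2 and in F3 than in controls. That pattern leaned on 1 array, since control replicate 2 gave the highest value of all 12 arrays for 7 of the 8 genes, Hmox1 being the exception. Across all genes tested, control replicate 2 was the highest array for 14.5% and the lowest for 22.4%. Control replicate 3 was the highest for more of them, 26.3%, and the lowest for 19.1%, but was neither for any of the 8 genes. The gene-by-gene values follow, ordered by role. In bulk liver, fewer cells of a type and less RNA per cell cannot be told apart.

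**Figure D1:**
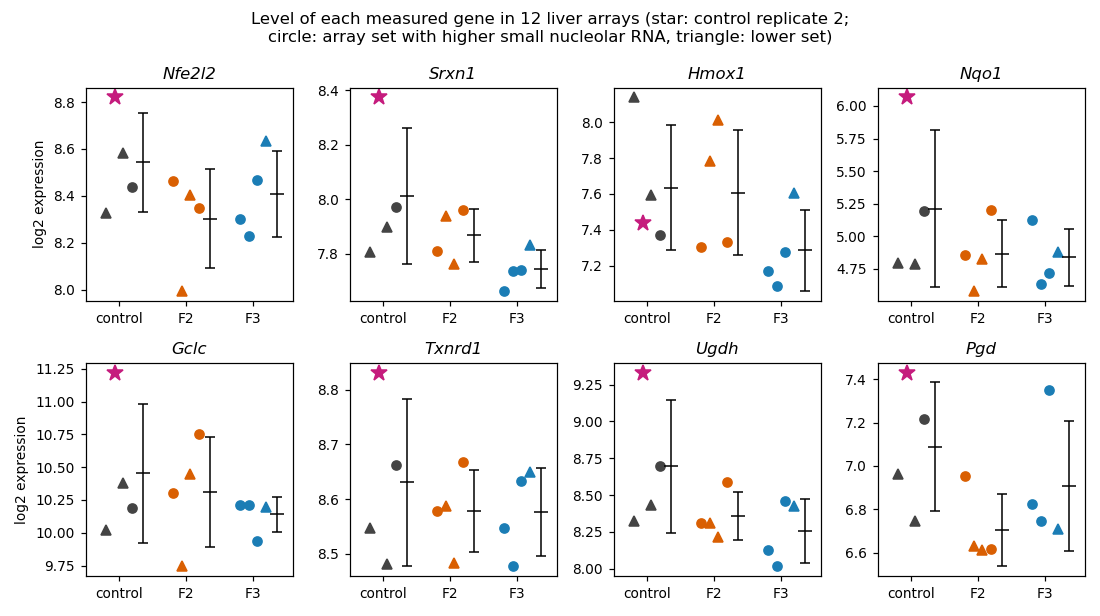
Log2 expression (vertical axis) of the 8 measured genes in each of 12 arrays, by group, with the mean and SD of each group (n = 4) as a bar beside the points. The star is control replicate 2, circles are the higher small nucleolar RNA set and triangles the lower set; the star is the top point in 7 of 8 panels, and in the Hmox1 panel every triangle lies above every circle and the star.

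Nfe2l2 read 8.33, 8.82, 8.58 and 8.44 in control replicates 1 to 4, then 8.46, 7.99, 8.40 and 8.35 in F2, and 8.30, 8.23, 8.47 and 8.64 in F3. The lowest value was that of F2 replicate 2 and the groups overlapped. The mean difference from control was −0.24 in F2 (SE 0.13, 95% interval −0.52 to 0.042) and −0.14 in F3 (SE 0.13, interval −0.42 to 0.15), and without control replicate 2 it was −0.15 and −0.043. Without F2 replicate 2 the F2 difference was −0.14. Of its regulators, Keap1, the cytoplasmic inhibitor, differed by −0.046 in F2 and −0.11 in F3 (SE 0.069 for both), and Bach1, a repressor that competes for the same DNA element, by 0.075 and 6e-05 (SE 0.18 for both).

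Srxn1 encodes sulfiredoxin, which repairs over-oxidised peroxiredoxins. Its level was 7.80, 8.37, 7.90 and 7.97 in controls, 7.81, 7.94, 7.76 and 7.96 in F2, and 7.66, 7.74, 7.74 and 7.83 in F3. Only F3 replicate 4 exceeded the lowest control among the F3 arrays. The F3 difference was −0.27 (SE 0.11, interval −0.50 to −0.040, unadjusted p = 0.025, limma adjusted p = 0.9998) and the F2 difference −0.14 (SE 0.11, interval −0.38 to 0.085). Leaving out control replicate 2 reduced them to −0.15 and −0.025. Txnrd1, thioredoxin reductase, was the least variable of the 8 genes, between 8.48 and 8.83 over all arrays. Control replicate 2 held its highest value, and the second highest was 8.67. Its differences were −0.052 in F2 (interval −0.22 to 0.12) and −0.054 in F3 (interval −0.22 to 0.12), and both turned to 0.015 and 0.013 without control replicate 2.

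Gclc encodes the catalytic subunit of glutamate-cysteine ligase, the rate-limiting enzyme of glutathione synthesis, and Gclm its modifier subunit. Gclc read 10.02, 11.22, 10.38 and 10.19 in controls, 10.30, 9.74, 10.45 and 10.75 in F2, and 10.21, 10.21, 9.94 and 10.20 in F3. The F3 arrays were the tightest of the 3 groups (SD 0.13 against 0.42 in F2 and 0.53 in controls), and all groups overlapped. Gclc differed by −0.14 in F2 (SE 0.24, interval −0.67 to 0.39) and −0.31 in F3 (SE 0.24, interval −0.85 to 0.22). Without control replicate 2 the F2 difference turned to 0.11 and the F3 difference shrank to −0.060. The probe set shared by Gclm and Gm6061 ran only from 9.18 to 9.48 and differed by 0.017 in F2 (interval −0.14 to 0.18) and 0.012 in F3 (interval −0.15 to 0.17).

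Nqo1, a quinone reductase widely used as a readout of NRF2, was dim on these arrays. Of the negative control probe sets, 33.1% were as bright as its mean or brighter, so its values are close to background. It read 4.80, 6.07, 4.78 and 5.20 in controls, 4.85, 4.58, 4.82 and 5.20 in F2, and 5.13, 4.63, 4.72 and 4.88 in F3. One array, control replicate 2, lay 1.19 above the mean of the other 11, while those others spanned 4.58 to 5.20. The differences of −0.35 in F2 (SE 0.24, interval −0.88 to 0.19) and −0.37 in F3 (SE 0.24, interval −0.90 to 0.16) fell to −0.060 and −0.086 without it.

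Ugdh makes UDP-glucuronic acid, the donor for glucuronidation. Its values were 8.33, 9.33, 8.43 and 8.70 in controls, 8.31, 8.31, 8.22 and 8.59 in F2, and 8.13, 8.02, 8.46 and 8.42 in F3. The lowest 2 values of all were F3 replicates 1 and 2, and control replicates 2 and 4 were the highest. Ugdh differed from control by −0.44 in F3 (SE 0.19, interval −0.85 to −0.031, unadjusted p = 0.037, limma adjusted p = 0.9998) and −0.34 in F2 (SE 0.19, interval −0.75 to 0.071), and by −0.23 and −0.13 without control replicate 2. Pgd, 6-phosphogluconate dehydrogenase, yields NADPH in the pentose phosphate pathway. Of the negative control probe sets, 5.92% were as bright as the mean of Pgd or brighter. Pgd read 6.96, 7.43, 6.75 and 7.22 in controls, 6.96, 6.63, 6.61 and 6.62 in F2, and 6.83, 6.75, 7.35 and 6.71 in F3. In F2, 3 of 4 arrays lay under every control and F2 replicate 1 did not. Its F2 difference was −0.38 (SE 0.16, interval −0.74 to −0.027, unadjusted p = 0.037, limma adjusted p = 0.9999), or −0.27 without control replicate 2, and its F3 difference was −0.18 (SE 0.16, interval −0.54 to 0.18), or −0.067 without it. Leaving out F3 replicate 3, the highest F3 array, gave −0.33 in F3 (unadjusted p = 0.044, limma adjusted p = 0.9968).

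Hmox1 encodes haem oxygenase 1, which opens the haem ring and is abundant in macrophages that clear red cells. It read 8.14, 7.44, 7.59 and 7.37 in controls, 7.30, 7.78, 8.01 and 7.33 in F2, and 7.17, 7.09, 7.28 and 7.61 in F3. The differences were −0.028 in F2 (SE 0.19, interval −0.45 to 0.39) and −0.35 in F3 (SE 0.19, interval −0.77 to 0.072). Without control replicate 1, its highest array, the F2 difference turned to 0.14 and the F3 difference was −0.18. The values divided by small nucleolar RNA set and not by group: the lower set spanned 7.59 to 8.14 and the higher set 7.09 to 7.44, with no overlap. Among the 8 genes, only Hmox1 had sets that did not overlap, against 5.71% of all genes tested (2.34% with the lower set above). F3 had 3 of its 4 arrays in the higher set and the other groups 2 each, and with the set as a block the Hmox1 difference in F3 was −0.23.

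Because Hmox1 is also a macrophage gene, the Kupffer cell markers are given beside it. All 7 were tested, and their mean ran from 7.36 to 8.02 in the lower set and from 7.10 to 7.78 in the higher set. By group it ran from 7.40 to 7.65 in controls, 7.31 to 8.02 in F2 and 7.10 to 7.78 in F3. The part of these cells in the Hmox1 values was not tested.

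Set beside the whole array, the 8 genes looked as follows in F2. Limma called 0 of 8 at an adjusted p under 0.05, and 0 (0%) of the 18725 genes, with a smallest adjusted p of 0.9999. Without adjustment, 1 of 8 (Pgd) had a p under 0.05, against 0.919% of all genes. The difference was below 0 for 8 of 8, against 56.7% of all genes, with a median of −0.19 against −0.010. Arrays of F2 and control did not overlap for 0 of 8 (all genes, 0.705%). Leaving out control replicate 2 left 6 of 8 below 0, a median of −0.077 and 0 of 8 with an unadjusted p under 0.05, while over all genes such p-values went from 172 to 573 of 18725.

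In F3, limma called 0 of 8 and 0 (0%) of all genes (smallest adjusted p = 0.9998). Without adjustment, 2 of 8 (Srxn1 and Ugdh) had a p under 0.05, against 2.93% of all genes, and 8 of 8 lay below control, against 54.7%. The median was −0.29 against −0.010 over all genes, and 0 of 8 had ranges that did not overlap (all genes, 1.63%). Without control replicate 2 the median was −0.076, 7 of 8 lay below control and 0 of 8 had an unadjusted p under 0.05, while over all genes such p-values went from 548 to 1210 of 18725. F2 and F3 were compared with the same 4 control arrays, so the lean to lower values in both is not a repeat observation.

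F3 and F2, which share no array, did not separate. Limma called 0 of 8 and 0 (0%) of all genes (smallest adjusted p = 0.9999), and 0 of 8 reached an unadjusted p under 0.05, against 2.37% of all genes. F3 lay below F2 in 6 of 8, against 48.6% of all genes, the others being Nfe2l2 (0.10) and Pgd (0.20). The median difference was −0.064, and 0 of 8 had ranges that did not overlap (all genes, 2.46%).

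**Figure D2:**
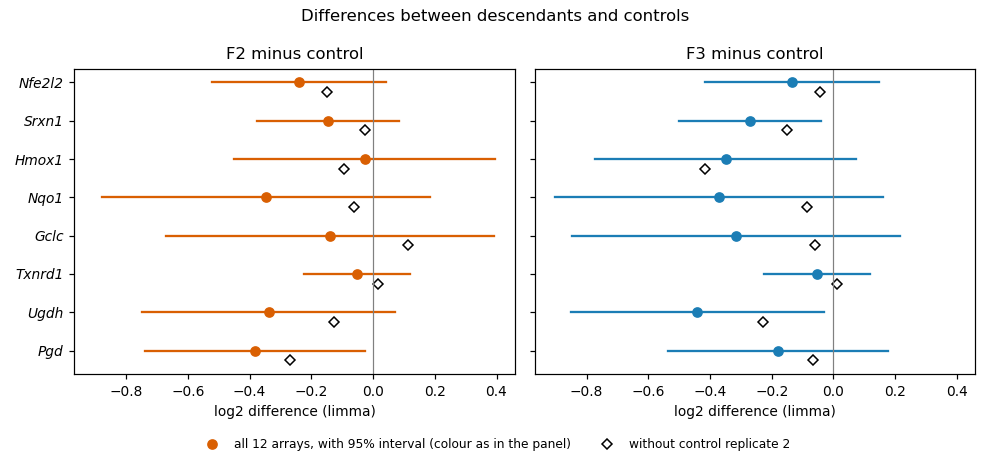
Log2 difference from control (horizontal axis) for the 8 genes, F2 on the left and F3 on the right. Filled points with lines are the limma estimate from 12 arrays and its 95% interval, and open diamonds the estimate without control replicate 2; the diamonds lie nearer 0 for all genes but Hmox1, and to the right of 0 for Gclc and Txnrd1 in F2 and Txnrd1 in F3.

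The array sets gave different pictures of the same contrast. With the set as a block, limma called 0 genes in each comparison and the medians of the 8 genes were −0.19 in F2 and −0.27 in F3. Within the higher set, which holds control replicate 2, the medians were −0.26 and −0.40, and 2 of 8 genes in F2 and 5 of 8 in F3 had an unadjusted limma p under 0.05 with 0 called. Of all 18725 genes, 422 in F2 and 859 in F3 had such a p within that set. Within the lower set, with 2 controls, 2 F2 arrays and 1 F3 array, they were −0.096 and 0.020, and 4 of 8 genes lay below control in F3.

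Levels of the genes other than Hmox1 moved in parallel over the 12 arrays, to a degree that depended on control replicate 2. Over 12 arrays, the 28 pairs of the 8 genes had a median Pearson r of 0.58, and 19 (67.9%) had r of at least 0.5. Over all pairs of genes tested the median r was 0.005 and 13.9% reached 0.5. All 19 were pairs without Hmox1, whose 7 pairs ran from −0.26 to 0.037. Those 7 values pool the 2 array sets, between which Hmox1 did not overlap. Within the higher set alone the same 7 pairs ran from 0.59 to 0.92, or from 0.27 to 0.945 without control replicate 2. With group and array set removed they ran from −0.14 to 0.48. Without control replicate 2 the median over the 28 pairs fell to 0.18, and 4 pairs (14.3%) reached 0.5, against 13.8% of all gene pairs. The median r was 0.54 with group means removed and 0.49 with group and array set removed. Within the 7 arrays of the higher set it was 0.81, or 0.56 without control replicate 2. The values within this set, those of Hmox1 included, rest on 7 arrays or fewer. No value over all gene pairs was computed there, so they cannot show whether co-variation holds without control replicate 2. The lower set held too few arrays (5) to read.

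By two-sided permutation tests with Benjamini-Hochberg adjustment over the 28 pairs, 6 pairs passed by Pearson r and 2 by Spearman rho. Those 2 were Srxn1 with Ugdh and Txnrd1 with Ugdh, whose promoter windows are shown above. Srxn1 and Ugdh had r = 0.93 (adjusted permutation p = 0.00364) and rho = 0.79 (adjusted permutation p = 0.0445). Their r was 0.76 without control replicate 2 and 0.70 without the 2 arrays farthest from the median of Srxn1. Txnrd1 and Ugdh had r = 0.89 and rho = 0.80, with the same adjusted permutation p-values, and r = 0.75 without control replicate 2 and 0.68 without the 2 arrays farthest from the median of Txnrd1. Over the 11 arrays without control replicate 2, 0 pairs passed, the smallest adjusted permutation p being 0.0997 for these same pairs.

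The other 4 that passed by Pearson r were weaker without that array. Nqo1 with Ugdh went from 0.86 to 0.50, Nqo1 with Gclc from 0.84 to 0.59, Nqo1 with Txnrd1 from 0.80 to 0.496 and Srxn1 with Txnrd1 from 0.79 to 0.46. Values of Nqo1 were close to background, which limits its r here and in the relations given further below. Nfe2l2 itself had r between 0.50 and 0.68 with the 6 targets other than Hmox1, highest with Ugdh, and between −0.031 and 0.41 without control replicate 2. None of its pairs passed (adjusted permutation p of 0.062 or more).

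**Figure D3:**
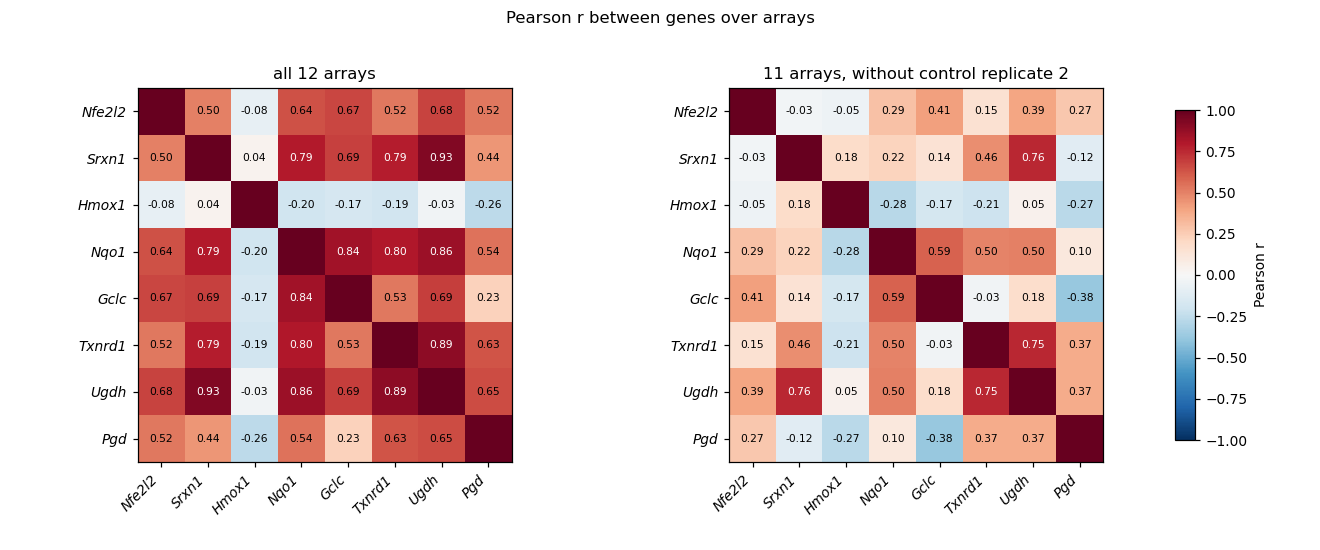
Pearson r between each pair of the 8 genes over all 12 arrays (left) and over the 11 arrays without control replicate 2 (right), printed in each cell and coloured from −1 (blue) to 1 (red). The left panel is red except in the Hmox1 row and column, and on the right only Srxn1 with Ugdh, Txnrd1 with Ugdh, Nqo1 with Gclc and Nqo1 with Ugdh stay at 0.5 or more.

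Pgd varied with a different set of genes. Among 48 relations between the 8 genes and 6 reference lists, 4 passed by Pearson r and 1 by Spearman rho after adjustment, and that 1 was Pgd with fatty acid synthesis (10 genes, among them Fasn, Acly, Scd1 and Elovl6). The relation had r = 0.88 (adjusted permutation p = 0.00432) and rho = 0.93 (adjusted permutation p = 0.00288). It rose to r = 0.96 without control replicate 2 (adjusted permutation p = 0.00048) and was 0.93 without the 2 arrays farthest from the median of Pgd. With group means removed r was 0.88, with group and array set removed 0.80, and within the higher set 0.82.

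The values of 1 lipogenic gene are given as an example. Fasn, fatty acid synthase, read 10.78, 11.07, 10.30 and 11.44 in controls, 10.95, 9.43, 9.49 and 9.18 in F2, and 10.53, 10.24, 11.78 and 10.30 in F3. F2 replicates 2, 3 and 4 were lowest for Fasn and for Pgd alike, and F3 replicate 3 stood above the other F3 arrays in both. Pgd and Fasn had r = 0.89 and rho = 0.93 over 12 arrays (adjusted permutation p = 0.00208 and 0.00096 over 16 relations with Fasn and Me1), and r = 0.95 without control replicate 2. With Me1, malic enzyme and another source of NADPH, Pgd had r = 0.77 (adjusted permutation p = 0.0235; rho = 0.69, adjusted permutation p = 0.131), and 0.63 without control replicate 2. With Fasn the other 7 genes had r between −0.31 (Hmox1) and 0.45 (Nfe2l2), and none of them passed.

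The remaining relations that passed by Pearson r did not pass by rank. Pgd with cholesterol synthesis (11 genes) had r = 0.85 (adjusted permutation p = 0.00432) and rho = 0.76 (adjusted permutation p = 0.128), and r stayed at 0.85 without control replicate 2. Nqo1 with targets of the xenobiotic receptors CAR and PXR had r = 0.91 (adjusted permutation p = 0.0264) and rho = 0.50 (adjusted permutation p = 0.62). Only 3 of the 7 genes of that list were tested, control replicate 2 had a list level of 1.36 where no other array exceeded 0.27, and r without it was 0.59. The last was Hmox1 with the small nucleolar RNAs, where the arrays form 2 clusters, so no pooled r is given. Within the 7 arrays of the higher set its r was −0.10, or −0.69 without control replicate 2.

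**Figure D4:**
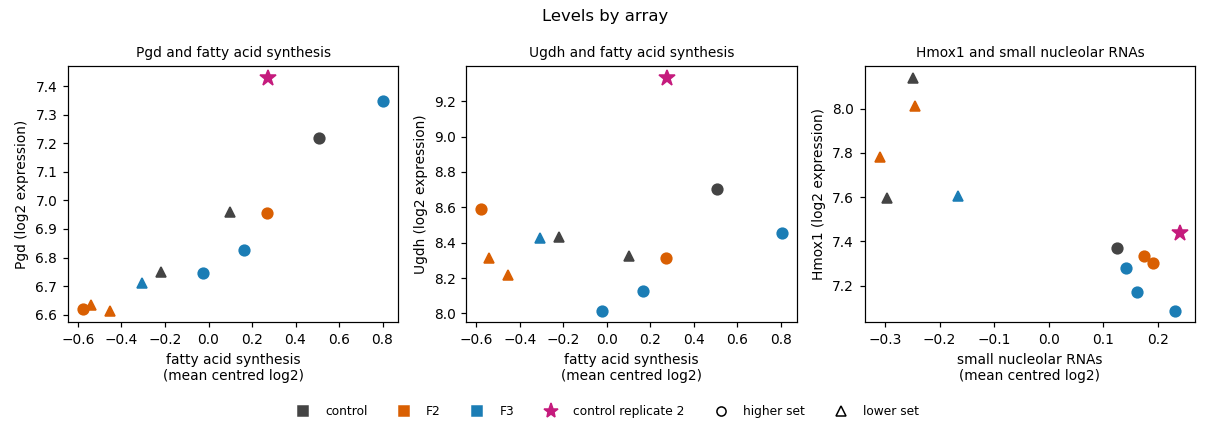
Log2 expression of Pgd (left), Ugdh (middle) and Hmox1 (right) in each array against the mean centred log2 level of the fatty acid synthesis genes (left, middle) or of the small nucleolar RNAs (right), with colours for group and marks for array set. Pgd climbs along the fatty acid synthesis axis (r = 0.88), Ugdh is highest at the star, control replicate 2, and the Hmox1 panel holds 2 separate clouds.

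The genes most like each one over the 12 arrays were chosen by the highest Pearson r. That search took protein-coding genes only and left out the measured genes. It also passed over predicted, RIKEN and small RNA names and those of olfactory and vomeronasal receptors. It therefore cannot show whether the measured NRF2 targets rank high. For Nfe2l2 the closest were Egln3, a prolyl hydroxylase of the hypoxia response (r = 0.93), and Alad, an enzyme of haem synthesis (0.92). Next were Slc35g1 (0.90), Cyb5b, a mitochondrial cytochrome b5 (0.88), and Ikbkg, the NEMO subunit of the NF-κB kinase (0.88). Each stayed at r of 0.80 or more without control replicate 2. For Nqo1 the closest was the glutathione transferase gene Gstm1 (0.94, or 0.79 without control replicate 2) and for Ugdh the related Gstm4 (0.94, or 0.83). Pgd was closest to Acly, ATP citrate lyase, which supplies acetyl-CoA for fatty acid synthesis (0.94, or 0.96 without control replicate 2). The others were Hdac6 for Srxn1 (0.97), Psmb2, a proteasome subunit, for Hmox1 (0.96), Entpd5 for Gclc (0.97) and Ints6 for Txnrd1 (0.95). They were picked as the highest of the genes searched, out of 18725 tested, over only 12 arrays, so these are descriptions. Ranked against all genes tested, Ugdh had a higher r with Srxn1 than 99.99%, or 99.7% without control replicate 2. With Txnrd1, Ugdh lay above 99.93%, or 99.61% without that array. For Nfe2l2 the highest measured gene, Ugdh, lay above 98.64%, or 89.13% without it. For Hmox1 the highest, Srxn1, lay above only 45.72%, or 61.76% without it.

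Other genes of the pathway showed a smaller lean. Of 79 genes in 8 lists, 69 were tested and 0 passed in either direction in F2 or F3. The cutoff for testing (4.55) lay under the 95th percentile of the negative control probe sets (7.05). The dimmer of the 69 genes may therefore be near background. Below control lay 49 of 69 in F2 (median −0.049) and 50 of 69 in F3 (median −0.047). Over all genes, 56.7% and 54.7% lay below, with a median of −0.010 in both. Without control replicate 2, 48 and 44 lay below, with medians of −0.024 and −0.031, against −0.018 and −0.021 over all genes. That array was the highest for 31 of the 69, against 14.5% of all genes. The conjugation and efflux list, mainly glutathione transferases and ABC transporters, had 11 of 13 below control in F2 and 10 of 13 in F3, with medians of −0.24 in both, and 10 of 13 and 8 of 13 without control replicate 2, with medians of −0.15 and −0.064. The regulators of NRF2 had 4 of 10 and 6 of 10 below control, with medians of 0.017 and −0.013, and 5 of 10 and 7 of 10 without control replicate 2, with medians of −0.00094 and −0.058. The difference between these lists was not tested.

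The pathway gene with the lowest p in both comparisons was Gstm2, a glutathione transferase. It read 8.51, 8.88, 8.64 and 8.75 in controls, 8.43, 8.34, 8.46 and 8.46 in F2, and 8.50, 8.25, 8.43 and 8.51 in F3. All 4 F2 arrays lay under every control, while F3 replicate 4 was just above the lowest control. Ranges of F2 and control did not overlap for 0.705% of all genes, and Gstm2 was picked by its p from 69 pathway genes. The difference was −0.27 in both (SE 0.084, unadjusted p = 0.0076 in F2 and 0.0075 in F3, limma adjusted p = 0.9999 and 0.9998), and −0.21 in both without control replicate 2. Gstm genes are close paralogs whose probes may share signal.

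Next in F2 were Gstm3 (−0.49, SE 0.23, and −0.25 without control replicate 2) and the quinone reductase gene Nqo2 (−0.22, SE 0.11, and −0.21 without it). Next in F3 were Txn2, mitochondrial thioredoxin (−0.17, SE 0.060, and −0.18 without it), and Nfe2l1, a factor related to NRF2 (−0.24, SE 0.086, and −0.16 without it). None of these passed the test.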

How the data were processed

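Liver RNA of 12 samples was hybridised to Affymetrix whole-transcript arrays. The deposited values are log2 expression values per probe set. Per the submitters' processing notes, the authors used Affymetrix Expression Console, with its version and its normalization not given in the sources used here. Among 72688 probe sets, the annotation used gave 30604 with 1 gene symbol and 2146 with several. A gene was its brightest probe set with 1 symbol, tested where its mean exceeded the median probe set (4.55). Groups were compared with limma 3.58.1 in R 4.3.3 (lmFit and eBayes on all 12 arrays, Benjamini-Hochberg adjustment over 18725 genes), tested on simulated data first. Correlations used 100000 permutations. The design listed 10 genes and their pairs, and 8 could be used. A list's level is the average of its genes after each gene was centred on its own mean. Promoter windows are from RefSeq, GRCm38.p6, and no build was named for the array values.

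The genes and lists were chosen with earlier results of these data known. Named genes were all 10 listed, the 3 pathway genes of lowest p in each of F2 and F3 against control, and Fasn and Me1. The 5 genes most like Nfe2l2 and the 1 most like each other gene were named too. The search for those took protein-coding genes only and left out the measured genes. It also passed over predicted, RIKEN and small RNA names and those of olfactory and vomeronasal receptors. Keap1 and Bach1 were added after their values were seen. Alternatives were other normalizations, filters and probe set rules, array weights, blocks, each array set alone and leaving arrays out.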

Additional observations from a re-analysis of the deposited data

Results flagged for a closer look

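In 27 checks of a gene within a group of 4 arrays, 2 arrays lay far from the other 3, with a gap that took more of the group's range than 0.829. Chance gives about 1 such case in 20 groups. Gclc in F3 replicate 3 was 9.94, where the other F3 arrays lay between 10.20 and 10.21, so the gap was wide mainly because those 3 were so close. Pgd in F2 replicate 1 was 6.96, where the other F2 arrays lay between 6.61 and 6.63.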

How the results depend on the processing

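There were 27 other settings, and that with group means removed gave correlations only. Over the rest, 18 of 414 values of single-gene differences turned in sign and none moved past the test. Leaving out 1 array at a time gave a median of the 8 genes between −0.33 and −0.076 in F3 against control (the last without control replicate 2, and also without control replicate 2 and F2 replicate 2 together), and between −0.30 and −0.077 in F2. It gave a median pairwise r between 0.18 and 0.66. That r was 0.19 without control replicate 2 and F2 replicate 2, 0.43 after quantile normalization, 0.81 within the higher array set and −0.0030 within the lower set. Within the lower set the F3 median was 0.020, where F3 replicate 4 was the only F3 array, so F3 had no replicate there. What made the values differ between settings was not tested.

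Differences from control that turned above 0 were as follows. Within the lower set Hmox1 (0.030) and Txnrd1 (0.020) turned in F2, and Nfe2l2 (0.18), Nqo1 (0.092), Txnrd1 (0.13) and Ugdh (0.045) in F3. Without control replicate 2 and F2 replicate 2 together, Nqo1 (0.035), Gclc (0.30) and Txnrd1 (0.012) turned in F2, and Txnrd1 (0.013) in F3. Array weights gave 0.18 for Gclc in F2. Leaving out 1 array gave −0.29 to 0.11 for Gclc, −0.16 to 0.14 for Hmox1 and −0.10 to 0.015 for Txnrd1 in F2, and −0.10 to 0.013 for Txnrd1, −0.46 to −0.18 for Hmox1 and −0.33 to −0.067 for Pgd in F3.

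With the replicate number as a replicate block, limma called 0 genes in each comparison, the medians stayed at −0.19 and −0.29, and Pgd in F2 no longer had an unadjusted p under 0.05. Same-numbered arrays showed no common deviation (correlations of −0.51 to 0.32, over 0.1 in 3 of 12 pairs of arrays). The array sets and control replicate 2 also enter these correlations, so they cannot decide whether the numbers pair the samples. The median pairwise r was 0.68 with this block. Counting the probe set shared by Gclm and Gm6061 as a ninth gene, and removing group means before correlating, were chosen after seeing the data, and the first gave medians of −0.14 in F2 and −0.27 in F3. Nqo1 is limited by its signal near background.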
